A study of Mus musculus with 18 samples.

Results

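The genes described here are the enzymes and transporters that carry glucose to lactate, the kinases that switch off pyruvate dehydrogenase, and HIF1A with 2 of its oxygen-dependent regulators and its target Bnip3. They are 34 genes chosen by name, not by a threshold on any value. All 34 are among the 45777 genes of the deposited table, and all 34 are among the 17159 genes with enough counts to be tested. The cells were mouse BMMC, the usual abbreviation of bone marrow-derived mast cells, grown from marrow of femurs and tibias. The WT cells were Sirt6 flox/flox and the KO cells were LysM-Cre; Sirt6 flox/flox, so every library carried the floxed allele and the KO libraries added a Cre driven by the lysozyme M promoter, which is active mainly in granulocytes and macrophages. Each genotype was sampled at 3 levels labelled 0, 20 and 60, with no unit given. LPS is named as the treatment at 20 and 60, and no treatment is named at 0, while the series title speaks of FcεRI, the high-affinity IgE receptor. The 6 groups had 3 libraries each, 18 in all, and the same numbers 4120, 414 and 6110 recur in every group. The labels do not say whether a number is an animal, a culture or a day, and give no age.

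Glycolysis converts glucose to pyruvate in the cytosol, and lactate dehydrogenase then turns pyruvate into lactate, which monocarboxylate transporters export. HIF1A is a transcription factor that is hydroxylated by the EGLN enzymes and degraded when oxygen is present, and many glycolytic genes are among its targets. Sirt6 is a chromatin-bound deacetylase known to repress this programme in other cells, and activated mast cells draw on glycolysis for degranulation and cytokine output.

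HIF1A binds the core motif RCGTG, that is ACGTG or GCGTG. The start-site regions of 5 of the genes are shown, picked by their test outcome or as textbook HIF1A targets. Bnip3 and Pdk3 were the only members that passed the main test of KO against WT over all levels. These calls did not hold under every setting. Tpi1 came closest to the threshold without passing it. Ldha and Slc2a1 are textbook HIF1A targets that did not pass the test, the first with a higher mean in KO. Each sequence runs 5′ to 3′ on the gene's own strand, from 250 bases before the start to 50 after it, in GRCm38.p6 from RefSeq. Capitals mark matches to ACGTG or GCGTG on either strand, so that they can also read CACGT or CACGC.
Bnip3, chr7:138909457-138909756, minus strand: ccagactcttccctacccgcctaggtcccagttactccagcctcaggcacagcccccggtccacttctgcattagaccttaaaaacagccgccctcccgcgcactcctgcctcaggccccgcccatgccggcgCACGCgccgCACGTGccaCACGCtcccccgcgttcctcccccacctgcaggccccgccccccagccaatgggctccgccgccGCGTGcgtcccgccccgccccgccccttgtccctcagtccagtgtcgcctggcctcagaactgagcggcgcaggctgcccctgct
Pdk3, chrX:93832101-93832400, minus strand: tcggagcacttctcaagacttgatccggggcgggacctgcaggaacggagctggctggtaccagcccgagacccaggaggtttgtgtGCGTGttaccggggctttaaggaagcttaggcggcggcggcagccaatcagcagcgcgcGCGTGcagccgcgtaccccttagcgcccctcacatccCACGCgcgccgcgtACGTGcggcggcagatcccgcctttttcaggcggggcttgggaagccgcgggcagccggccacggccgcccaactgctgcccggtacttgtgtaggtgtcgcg
Tpi1, chr6:124814109-124814408, minus strand: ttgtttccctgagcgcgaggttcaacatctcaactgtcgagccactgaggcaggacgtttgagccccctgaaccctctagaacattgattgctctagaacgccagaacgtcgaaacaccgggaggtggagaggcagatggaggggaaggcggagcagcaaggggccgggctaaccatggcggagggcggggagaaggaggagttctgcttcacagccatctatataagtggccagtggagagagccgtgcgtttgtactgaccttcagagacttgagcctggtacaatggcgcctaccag
Ldha, chr7:46845554-46845853, plus strand: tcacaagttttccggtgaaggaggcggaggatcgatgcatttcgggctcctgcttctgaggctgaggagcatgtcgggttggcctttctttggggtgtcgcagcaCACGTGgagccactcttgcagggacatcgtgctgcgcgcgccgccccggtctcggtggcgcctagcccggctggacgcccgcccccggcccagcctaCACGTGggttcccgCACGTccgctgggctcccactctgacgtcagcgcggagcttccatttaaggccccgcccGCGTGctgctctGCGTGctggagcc
Slc2a1, chr4:119108495-119108794, plus strand: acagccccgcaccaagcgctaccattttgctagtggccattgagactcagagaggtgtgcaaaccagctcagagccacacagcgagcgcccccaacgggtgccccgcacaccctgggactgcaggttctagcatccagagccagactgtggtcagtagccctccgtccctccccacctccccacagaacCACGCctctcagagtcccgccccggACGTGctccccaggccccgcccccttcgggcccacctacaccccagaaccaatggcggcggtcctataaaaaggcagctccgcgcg

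The palindrome CACGTG, which holds ACGTG once on each strand and so counts as 2 matches, occurs in the Bnip3 window with its first base 108 bases before the start. In the Ldha window, of the 2 listed for that gene the one with more matches, it occurs with its first base at 145 and again at 48 bases before the start. Pdk3 holds ACGTG 53 bases before the start and GCGTG in 3 places, and Slc2a1 holds 1 match to each motif. The Tpi1 window holds neither. Over the 33 members with a listed start there were 49 windows of 300 bases, some of which overlap where a gene has several starts. ACGTG occurred in 26 of the 49 windows, 53.1%, against 19.6% of all 32851 windows and 24.65% of the 13566 windows of tested protein-coding genes. GCGTG also occurred in 26 of the 49, against 32.4% of all windows and 48.3% of those of tested protein-coding genes. Either motif was found in 79.6% of the members' windows, against 43.8% and 59.7%. The median GC content was 61% in the members' windows and 60% in those of tested protein-coding genes. The 4 members with neither motif in any window were Gpi1, Tpi1, Bpgm and Eno2. A match is a description of these letters and was not tied to binding.

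The libraries held 20026054 to 42265435 counts. The share of counts from the 37 mitochondrially encoded genes ran from 4.09% to 41.9%. It was over 20% in 5 libraries, WT 4120 at 0 and at 20, WT 414 at 60, and KO 414 at 0 and at 60, and at most 17.8% in the other 13. The mean share at 0, 20 and 60 was 22.66, 17.53 and 22.21% in WT and 13.81, 6.35 and 14.48% in KO. It was thus higher in WT at each level, with a wide spread within most groups (SD 1.62 to 17.49, n = 3). Counts over the members, and the values of some single genes, are therefore given with and without those 5. A gene with no such second value rests on all 18 libraries. In the libraries that remain without the 5, the share was 6.56% to 17.8% in WT and 4.09% to 10.2% in KO. Leaving those 5 out therefore does not even out the share between the genotypes. The summed level of 15 mast cell markers was 16455 to 47932 CPM (counts scaled to library size), led by Cpa3 and Cma1, and the sums of the genotypes overlapped. Some single markers did not overlap at every level. Kit was at 950 to 1654 CPM in WT and 2356 to 2653 CPM in KO at 0. At 20 it was at 1057 to 1607 CPM in WT and 1808 to 2048 CPM in KO, and at 60 it overlapped. None of the 15 was lower in KO without overlap at any level. Of the 15, Mcpt4, Mcpt2 and Mcpt8 were low, with means of 1.57, 2.63 and 5.69 CPM, and Tpsb2 ran from 185 to 7204 CPM. Markers of neutrophils and their precursors were near 0, but their sum over 10 genes was 7.15 to 27.0 CPM in the KO libraries and 0 to 5.29 CPM in the WT libraries, with no overlap. Elane and Retnlg were at 0 in every WT library at 0, 20 and 60, and Ltf and Ly6g in those at 0. Of 10 macrophage markers, Cd68 was the most abundant, at 23.2 to 276 CPM. Lyz2 was lower in KO without overlap, at 0.772 to 3.69 CPM in WT and 0 to 0.249 CPM in KO. Itgam was higher in KO without overlap, at 0 to 0.455 CPM in WT and 0.505 to 2.94 CPM in KO. The rest, Cd68 among them, overlapped or were at 0. Among megakaryocyte markers Itga2b alone was abundant, at 4172 to 5878 CPM in WT and 2351 to 3812 CPM in KO, while the other 4 reached at most 4.31 CPM. The part of these differences in the results was not tested. Sirt6 itself was at 14.6 ± 2.44, 14.7 ± 3.50 and 10.7 ± 1.02 CPM in WT at 0, 20 and 60 and at 16.7 ± 2.66, 17.1 ± 3.47 and 11.8 ± 1.72 CPM in KO (mean ± SD, n = 3). The log2 fold change of KO over WT was 0.18 (SE 0.13, adjusted p = 0.343, edgeR) over all levels. Counts over the whole gene therefore give no check of the labelled deletion, which may cover only part of the gene.

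In units that allow genes to be compared, the deposited TPM, which allow for transcript length, the members spanned a very wide range. Aldoa, the aldolase of most tissues, had the highest mean over the 18 libraries at 5974 TPM. Gapdh followed at 1559.6, Eno1 at 1290.3, Pkm at 1244, Gpi1 at 1116 and Ldha at 940.3 TPM. Bnip3 stood at 177 and Pdk3 at 21.3 TPM. Hif1a was low at 7.16 TPM, with 3.77 to 13.9 over the libraries, and its regulator Egln3 lower still at 2.34 TPM. The lowest were Ldhb at 0.906, Slc16a1 at 0.668 and Hk3 at 0.0760 TPM, and Hk3 had 89 counts in all libraries together. Neighbours in this order, such as Eno1 and Pkm, overlapped over the libraries.

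**Figure D1:**
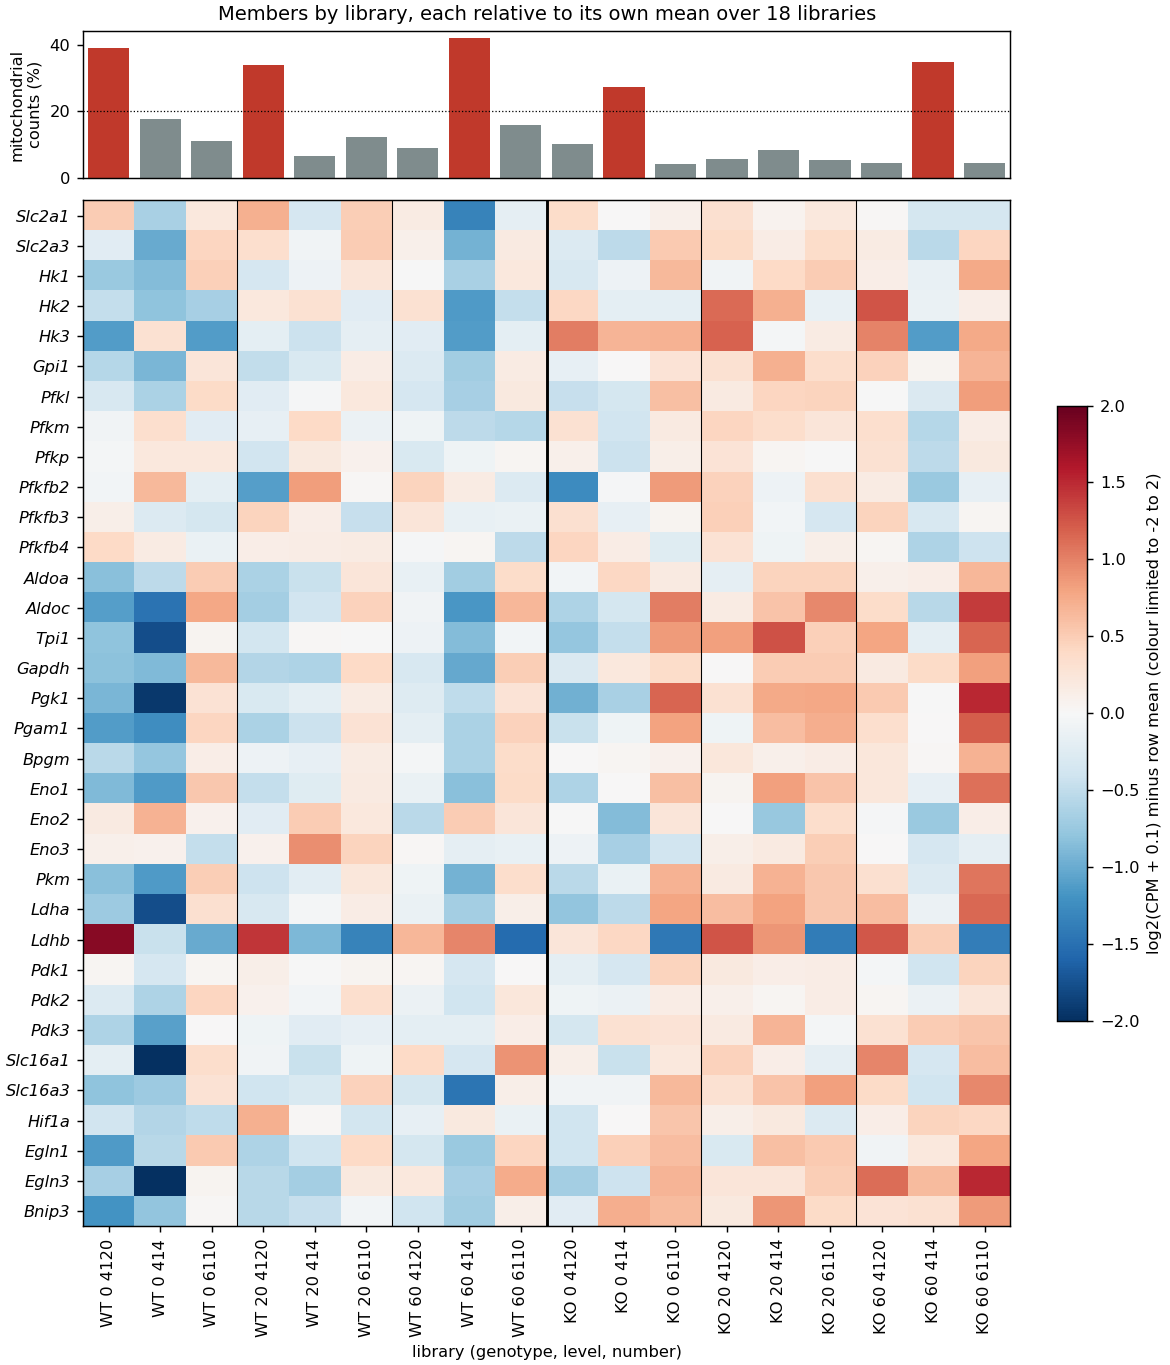
Each row is a member and each column a library; colour is log2(CPM + 0.1) minus the gene's own mean over the 18 libraries, limited to -2 to 2. The bars above give the mitochondrially encoded share of all counts, in red over 20%. Bnip3, Tpi1 and Gpi1 are warmer in the KO columns than in the WT columns at the same level and number, and the libraries WT 414 at 60 and KO 414 at 60 are the lowest of their groups for 27 of 34 members each.

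Comparing KO with WT asks whether this pathway differed between the genotypes. They differ in carrying Cre as well as in any loss of Sirt6, and the design cannot tell these apart. Most members stood higher in KO. Averaged over the 3 levels, 29 of 34 had a higher mean in KO, with a median log2 fold change of 0.40, against 0.01 over all 17159 genes tested, of which 50.5% were higher. Bnip3, a mitophagy receptor, and Pdk3, a kinase that switches off pyruvate dehydrogenase, were higher in KO, and no member was lower (edgeR quasi-likelihood test, Benjamini-Hochberg adjusted p under 0.05, called below). Of all genes tested, 10.9% were called in this comparison and 4.29% were called higher in KO. In this fit the 2 of 34 members called therefore do not stand out from the background. At single levels the picture had the same direction with 0 members called. At 0, 28 of 34 members were higher in KO, with a median of 0.38, and 0.274% of all genes were called. At 20, 27 were higher, with a median of 0.45 and 0.210% of all genes called. At 60, 30 were higher, with a median of 0.45 and 0.268% of all genes called. By edgeR's unadjusted p under 0.05 there were 3, 1 and 2 members at 0, 20 and 60, where 12.1%, 7.79% and 10.7% of all genes tested reached it, and 11 over all levels, where 30.0% did. DESeq2 called 0 members at each single level too. Without the libraries rich in mitochondrially encoded reads, 29, 28 and 31 members were higher in KO at 0, 20 and 60, with medians of 0.31, 0.36 and 0.45. With the mitochondrial share as a covariate, 22, 23 and 25 were higher, with medians of 0.15, 0.14 and 0.25. In bulk RNA, fewer cells of a type and less RNA per cell cannot be told apart.

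The libraries of 1 genotype and number were not independent across levels, since they deviated together from their group means, with correlations of 0.210 to 0.811 over genes. The test over all levels counts 9 libraries a genotype as separate, so its p-values are too small if a number is 1 culture. When the 3 libraries of each genotype and number were summed, leaving 3 against 3, 0 members were called, and 0 were called with genotype and number as a random effect in limma-voom. Without the 5 libraries over 20% mitochondrial, edgeR called 0 members, while 31 of 34 were still higher in KO with a median log2 fold change of 0.37. There 1.63% of all 17023 genes tested were called. With the mitochondrial share as a covariate, 24 of 34 were higher in KO, the median was 0.22, and Bnip3 alone was called. In that fit 746 of 17159 genes tested were called. With the number as a replicate block, 17 members were called, all higher in KO, where 3972 of 17159 genes tested were called. That fit also counts the levels as separate, and same-numbered KO and WT libraries deviated together for every number only at 60. The count over all levels also moved with single libraries, to 14 without WT 6110 at 0 and to 6 without KO 414 at 60, and it was 0 without number 4120, 0 without 414 and 6 without 6110. The share of all genes called in these last fits is not given here, so their counts cannot be set against a background.

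**Figure D2:**
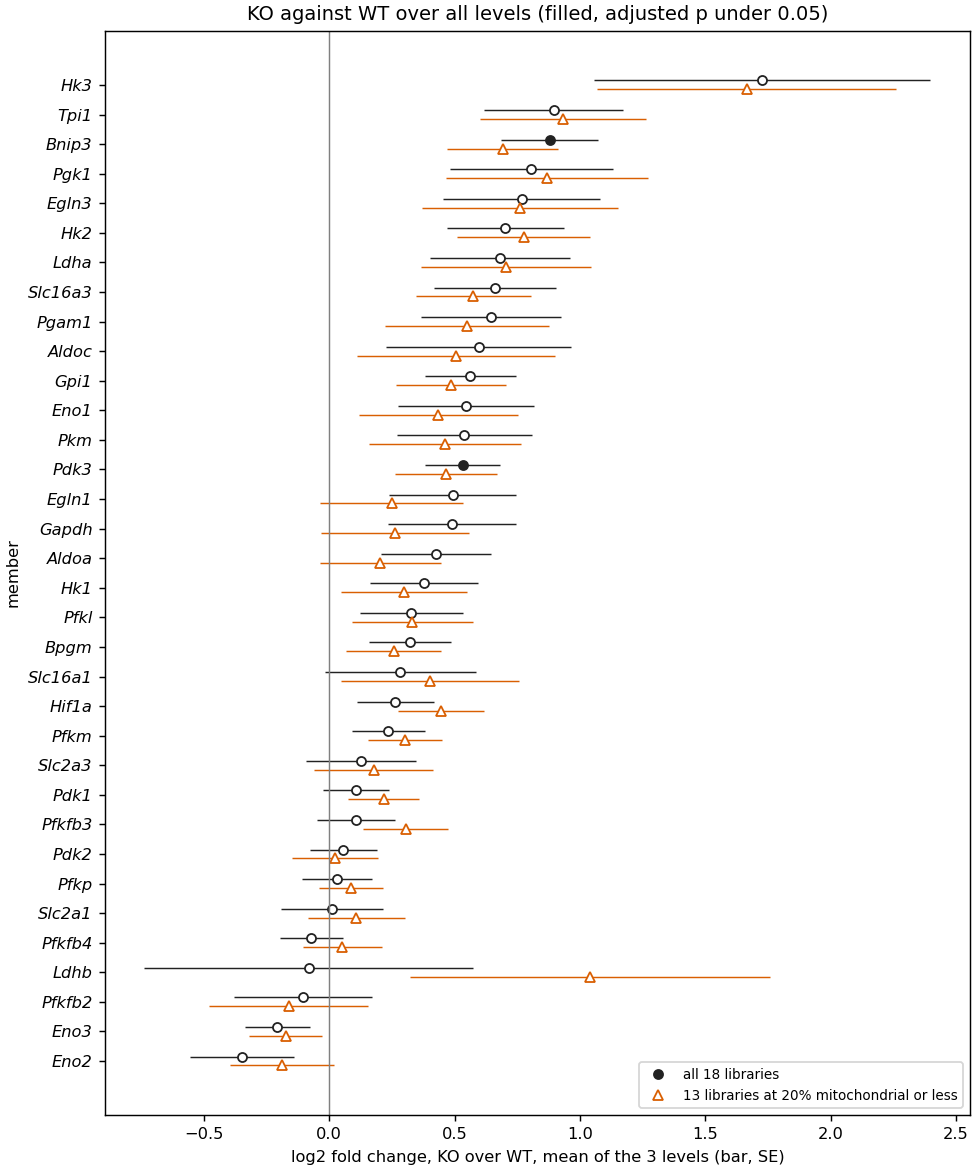
Points are log2 fold changes of KO over WT averaged over the 3 levels, bars are standard errors, and filled points have an adjusted p under 0.05. Circles use all 18 libraries and triangles the 13 at or under 20% mitochondrial counts. Most members lie to the right of 0 in both, and Bnip3 and Pdk3 alone are filled, with all libraries only.

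Bnip3 carried the clearest difference. Its gene lies at chr7:138890836-138909506 (GRCm38.p6), and its product sits in the outer mitochondrial membrane, where it marks mitochondria for autophagy. In the order 4120, 414, 6110, which holds for every list below, Bnip3 was at 72.6, 96.1 and 167 at 0, 112, 120.4 and 159 at 20, and 126, 102 and 179.7 at 60 CPM in WT. In KO it was at 141, 273 and 256 at 0, 189, 304 and 216 at 20, and 200.1, 204 and 299.6 at 60 CPM. The groups overlapped at 0 and did not overlap at 20 or at 60, where every KO library was above every WT library. The log2 fold change over all levels was 0.88 (SE 0.19, adjusted p = 0.0123, edgeR). It was 1.00, 0.86 and 0.79 at 0, 20 and 60, with adjusted p of 0.304, 0.598 and 0.415 (edgeR). Averaged over the levels within each number, Bnip3 was at 104, 106 and 169 CPM in WT and at 177, 260.3 and 257 CPM in KO, with no overlap and higher in KO within each of the 3 numbers. The exact two-sided permutation test on these 3 against 3 means gave p = 0.1, the smallest it can give. Without the mitochondrially rich libraries the log2 fold change was 0.69 (SE 0.22, adjusted p = 0.135, edgeR), no longer called. No single library ended the call when left out, but leaving out all 6 libraries of number 4120 (adjusted p = 0.0652, edgeR) or of number 414 (adjusted p = 0.165, edgeR) did.

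Pdk3 phosphorylates and so inhibits the pyruvate dehydrogenase complex, and lies at chrX:93764616-93832150. It was at 16.0, 11.6 and 24.8 at 0, 23.2, 21.1 and 22.0 at 20, and 21.6, 21.4 and 27.1 at 60 CPM in WT. In the KO libraries it was at 19.2, 30.5 and 29.7 at 0, 27.9, 39.7 and 24.0 at 20, and 30.6, 34.9 and 36.1 at 60 CPM. Every KO library was above every WT library at 20 and at 60, and the groups overlapped at 0. The log2 fold change over all levels was 0.53 (SE 0.15, adjusted p = 0.033, edgeR). Means within each number were 20.3, 18.04 and 24.6 CPM in WT and 25.9, 35.0 and 29.9 in KO, again without overlap (exact permutation p = 0.1). Without the mitochondrially rich libraries the value was 0.47 (SE 0.20, adjusted p = 0.236, edgeR). Leaving out all libraries of number 414 gave 0.31 (adjusted p = 0.288, edgeR) and of number 4120 gave 0.61 (adjusted p = 0.142, edgeR), so neither of these kept the call. Nor did leaving out any 1 of 11 single libraries, with adjusted p of 0.0529 to 0.081 (edgeR): the 6 WT libraries of numbers 4120 and 414, WT 6110 at 20, KO 414 at 0 and at 20, and KO 6110 at 0 and at 60.

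The other kinases of this family had small differences that did not pass the test. Pdk1, the isoform best known as a HIF1A target, was at 33.0, 25.3 and 33.1 at 0, 34.9, 31.8 and 33.3 at 20, and 32.8, 25.3 and 32.1 at 60 CPM in WT and at 28.0, 25.4 and 43.7 at 0, 36.8, 35.0 and 35.6 at 20, and 31.0, 24.2 and 43.7 at 60 CPM in KO. Its libraries overlapped at 0 and at 60, and at 20 the KO libraries lay just above the WT libraries. The log2 fold change over all levels was 0.11 (SE 0.13, adjusted p = 0.598, edgeR), and it was -0.07 with the mitochondrial share as a covariate. Pdk2 had 0.06 (SE 0.13). As a share of the summed TPM of the 3 kinases, Pdk3 made up 31.8 ± 1.995, 34.7 ± 2.06 and 39.1 ± 2.498% in WT at 0, 20 and 60, and 40.5 ± 6.25, 41.7 ± 6.98 and 46.0 ± 4.53% in KO (mean ± SD, n = 3). The share of Pdk2 was 44.9, 44.6 and 41.0% in WT and 40.0, 38.7 and 36.7% in KO.

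**Figure D3:**
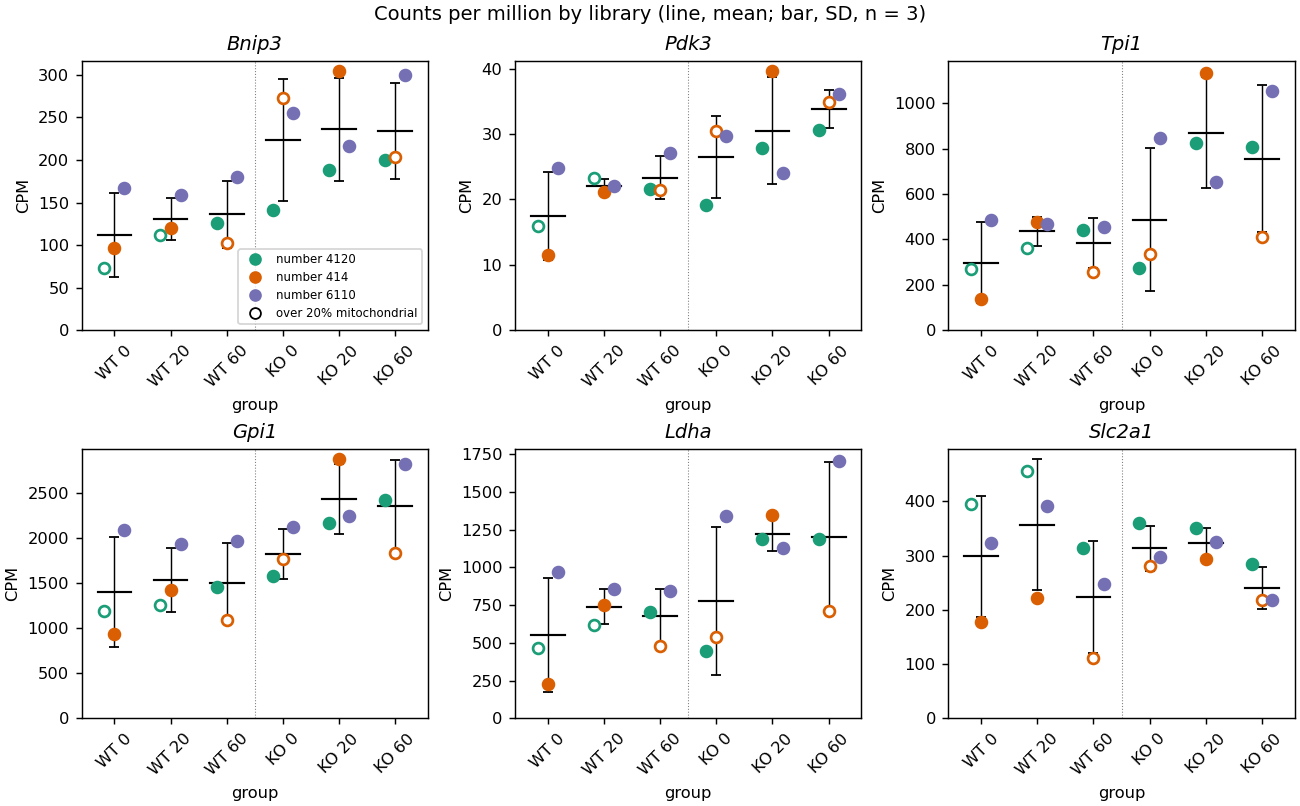
Points are CPM in each library, coloured by number and open where over 20% of counts were mitochondrially encoded; lines are group means and bars SD of 3 libraries. Bnip3 and Pdk3 stand higher in every KO library than in every WT library at 20 and at 60, whereas Slc2a1 overlaps at every level.

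For glucose entry, no difference between the genotypes passed the test. Slc2a1 encodes GLUT1, the basal glucose transporter. It was at 396, 177 and 323 at 0, 456, 222 and 392.4 at 20, and 313, 111 and 247 at 60 CPM in WT. In KO it was at 361, 282 and 298 at 0, 351, 294 and 325 at 20, and 285, 218 and 219 at 60 CPM. The genotypes overlapped at every level, and number 4120 had the highest value in all 6 groups. The direction differed between numbers. KO over WT was 0.67, 0.40 and 0.98 on the log2 scale in 414 at 0, 20 and 60, and -0.38 to -0.11 in the other numbers. Over all levels the log2 fold change was 0.01 (SE 0.20, adjusted p = 0.979, edgeR), with a sign that turned under other scalings, at -0.003 with DESeq2 size factors. Slc2a3, which encodes the high-affinity transporter GLUT3, had 0.13 (SE 0.22, adjusted p = 0.72, edgeR). Slc2a1 made up 61.0% to 69.3% of the TPM of the pair as a group mean.

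The hexokinases trap glucose as glucose 6-phosphate. Hk2, the inducible isoform that binds mitochondria, had group means of 84.2 ± 9.80, 142 ± 26.2 and 106 ± 52.9 CPM in WT at 0, 20 and 60 and 136 ± 35.4, 208 ± 85.9 and 193 ± 106 CPM in KO (mean ± SD, n = 3). At 0 the 3 KO libraries were above the 3 WT libraries, and at 20 and 60 they overlapped. Over all levels the log2 fold change was 0.70 (SE 0.23, adjusted p = 0.0632, edgeR), and 0.78 without the mitochondrially rich libraries. Hk1, the constitutive isoform, had 0.38 (adjusted p = 0.25, edgeR). As a group mean Hk1 supplied most of the hexokinase TPM, 70.5 and 67.5% in WT and KO at 0, and Hk2 29.5 and 32.4%. The lowest mean share of Hk1 was 61.9 ± 14.7% in KO at 20 (mean ± SD, n = 3). In KO 4120 the share of Hk2 exceeded that of Hk1, at 52.9 against 47.0% at 20 and 51.1 against 48.8% at 60. Hk3, a myeloid isoform, was at 0 to 0.168 CPM in WT and 0 to 0.392 CPM in KO, at most 12 counts in a library. It entered the test through the KO libraries, where it was higher, so its log2 fold change of 1.73 (SE 0.67, adjusted p = 0.101, edgeR) is a description only. Without Hk3, 28 of 33 members were higher in KO over all levels with a median of 0.38, and 27, 26 and 29 at 0, 20 and 60 with medians of 0.38, 0.43 and 0.42.

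Gpi1, which interconverts glucose and fructose 6-phosphates, was at 1189.5, 933 and 2092 at 0, 1257, 1422 and 1943 at 20, and 1459, 1091 and 1971 at 60 CPM in WT. KO libraries were at 1580.1, 1770.1 and 2132 at 0, 2171, 2887 and 2252 at 20, and 2427, 1833 and 2833 at 60 CPM. The KO libraries were all above the WT libraries at 20 and overlapped with them at 0 and 60. Averaged over the levels, the log2 fold change was 0.56 (SE 0.18, adjusted p = 0.0588, edgeR), just outside the threshold. Within each number, WT means were 1302, 1149 and 2002 CPM and KO means 2059, 2163 and 2405 CPM, without overlap (exact permutation p = 0.1).

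Phosphofructokinase 1, the committed step, showed small differences. Pfkl, the liver-type subunit, was at 165, 134 and 271 at 0, 176, 204 and 240.1 at 20, and 165, 131 and 237 at 60 CPM in WT and at 150.1, 163 and 314 at 0, 234, 279.6 and 282 at 20, and 206, 169 and 371 at 60 CPM in KO. Pfkm, the muscle-type subunit, was at 26.9, 35.4 and 24.0 at 0, 25.1, 37.2 and 25.8 at 20, and 26.6, 19.6 and 19.0 at 60 CPM in WT and at 34.7, 21.6 and 31.8 at 0, 37.9, 36.0 and 33.2 at 20, and 35.4, 18.9 and 31.1 at 60 CPM in KO. Pfkp, the platelet-type subunit, which had the highest mean TPM of the 3 in 5 of the 6 groups (in KO at 60 it was Pfkl), was at 429, 514 and 509 at 0, 338, 504 and 467 at 20, and 357, 418 and 456 at 60 CPM in WT and at 475, 328 and 478 at 0, 536, 454 and 441 at 20, and 547, 308 and 504 at 60 CPM in KO. For all 3 the genotypes overlapped at every level. Over all levels the log2 fold changes were 0.33 for Pfkl, 0.24 for Pfkm and 0.03 for Pfkp, with adjusted p of 0.287, 0.287 and 0.899 (edgeR). Pfkm overlaps Senp1 and Pfkp overlaps Pitrm1 on the genome, and the strand setting of the counting is not given in the sources used here. Pfkp held 65.2 ± 2.12, 55.1 ± 9.42 and 61.9 ± 11.1% of the summed TPM in WT and 58.9 ± 11.7, 54.9 ± 10.7 and 45.1 ± 6.36% in KO. From plain counts the Pfkp share was 69.2, 64.7, 67.6, 64.7, 61.2 and 62.4% in the same order, so the gap between WT and KO at 60 was narrower in counts than in TPM.

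The bifunctional PFKFB enzymes set the level of fructose 2,6-bisphosphate, the strongest activator of phosphofructokinase 1. Over all levels Pfkfb3 had a log2 fold change of 0.11, Pfkfb4 -0.07 and Pfkfb2 -0.10, with SE of 0.15, 0.13 and 0.28. Adjusted p was 0.665, 0.727 and 0.824 (edgeR). These 3 had a median of -0.07, against 0.40 over all members.

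Among the enzymes that split and oxidise the sugar lay larger mean differences. Tpi1, triose phosphate isomerase, was at 269, 137 and 488 at 0, 363, 478 and 468 at 20, and 439.6, 256 and 454 at 60 CPM in WT. The KO values were 274, 337 and 848 at 0, 826, 1135 and 651 at 20, and 808, 409.7 and 1052 at 60 CPM. At 20 every KO library was above every WT library, and at 0 and 60 the groups overlapped. Over all levels the log2 fold change was 0.90 (SE 0.28, adjusted p = 0.0501, edgeR), on the edge of the threshold. It was 0.93 (SE 0.33, adjusted p = 0.163, edgeR) without the mitochondrially rich libraries, and 0.49 with the mitochondrial share as a covariate. Within each number, Tpi1 was at 357, 290.5 and 470.0 CPM in WT and 636, 627 and 851 CPM in KO (exact permutation p = 0.1). Spsb2 overlaps Tpi1 on the genome and held 20684 counts, against 307960 for Tpi1.

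The neighbouring steps lay in the same direction, each without passing the test. Aldoa and Aldoc, which cleave fructose 1,6-bisphosphate, had log2 fold changes of 0.42 and 0.60 over all levels. Gapdh, which oxidises glyceraldehyde 3-phosphate, had 0.49, and Pgk1, which makes the first ATP, 0.81. Pgam1 had 0.65 and Bpgm, which diverts 1,3-bisphosphoglycerate, 0.32. The adjusted p of these 6 ran from 0.112 for Pgk1 to 0.287 for Aldoc (edgeR). Gapdh, widely used as a reference gene, had group means of 1084 ± 705, 1069 ± 466 and 1094 ± 563 CPM in WT and 1325 ± 292, 1561 ± 290.3 and 1700.4 ± 391 CPM in KO (mean ± SD, n = 3), a spread within WT that reached from 601 to 1898 CPM. Its 2 genotypes overlapped at every level. Pgk1 ranged from 93.7 to 1012 CPM over the libraries. Values of Pgam1 are uncertain, because 2 annotated pseudogenes held 38.0% of the counts of Pgam1 and pseudogenes together.

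The enolases were divided. Eno1, the ubiquitous isoform, had a log2 fold change of 0.55 (SE 0.27, adjusted p = 0.188, edgeR) over all levels, whereas Eno2, the neuronal isoform, had -0.35 (SE 0.21, adjusted p = 0.27, edgeR). Eno3, the muscle isoform, had -0.21 (SE 0.13, adjusted p = 0.291, edgeR). The lower Eno2 came from number 414, where KO over WT was -1.55, -1.27 and -1.25 on the log2 scale at 0, 20 and 60. In the same order it was -0.18, 0.24 and 0.52 in 4120 and 0.15, 0.14 and -0.11 in 6110. For Eno3 it was -0.74, -0.75 and -0.17 in 414, and -0.20 to 0.10 in the other numbers. The share of Eno1 in the TPM of the 3 was 85.0 ± 8.71, 88.8 ± 2.80 and 89.3 ± 6.00% in WT and 92.2 ± 3.76, 93.6 ± 2.52 and 94.1 ± 1.48% in KO (mean ± SD, n = 3), and without the mitochondrially rich libraries 92.7% in WT at 60 and 94.2% in KO at 60. Eno3 was at 73.9, 72.8 and 49.4 at 0, 73.5, 132 and 94.0 at 20, and 70.4, 61.0 and 62.3 at 60 CPM in WT and at 64.1, 43.7 and 52.8 at 0, 74.8, 78.1 and 97.0 at 20, and 69.2, 54.4 and 60.7 at 60 CPM in KO. It was higher at 20 than at 0 in both genotypes, by 0.61 in WT and 0.64 in KO on the log2 scale, with adjusted p of 0.59 and 0.91 (edgeR). These Eno3 values are uncertain, because Pfn1 overlaps it on the genome and held 528595 counts against 38690.

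**Figure D4:**
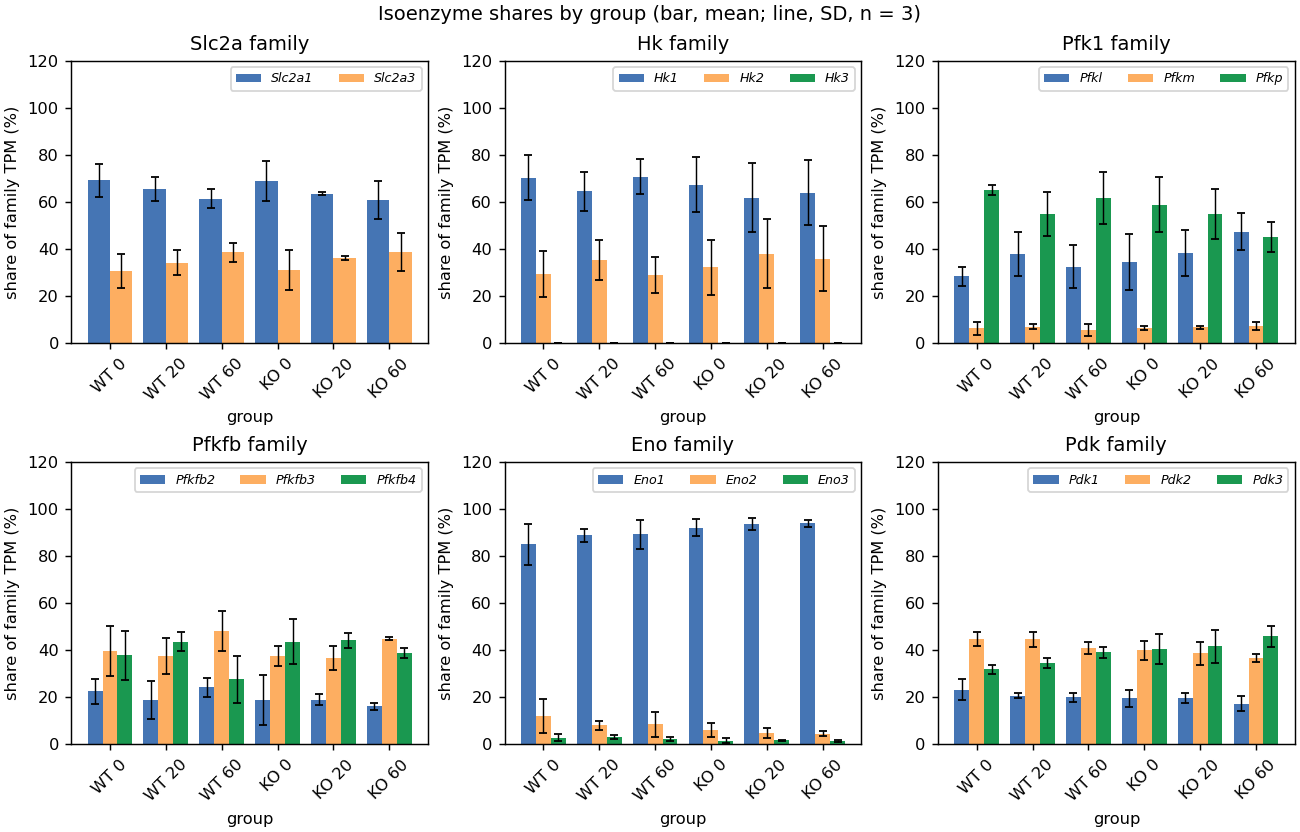
Bars are the mean share of each isoenzyme in the summed TPM of its family in each group, with SD of 3 libraries as lines. Eno1 fills most of its family in each group and Pdk3 has a larger mean share in KO than in WT at each level, while the mean share of Slc2a1 lies between 61.0% and 69.3%.

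Pyruvate kinase and lactate export closed the series. Pkm, which makes pyruvate, had a log2 fold change of 0.54 (SE 0.27, adjusted p = 0.191, edgeR). Ldha, which makes lactate and is a classical HIF1A target, was at 465, 225 and 967 at 0, 618, 749.5 and 854 at 20, and 704, 482 and 841 at 60 CPM in WT. In the KO libraries it was at 449, 539 and 1342 at 0, 1186, 1350.1 and 1128 at 20, and 1185, 709.9 and 1706 at 60 CPM. The KO libraries were all above the WT libraries at 20 and overlapped at 0 and at 60. Averaged over the levels, the log2 fold change was 0.68 (SE 0.28, adjusted p = 0.116, edgeR), and 0.70 (adjusted p = 0.274, edgeR) without the mitochondrially rich libraries. Ldha supplied at least 99.4% of lactate dehydrogenase TPM in each library, and Ldhb had 0.121 to 2.15 CPM. The 6 libraries of number 6110 held its lowest values, 0.121 to 0.219 CPM, against 0.244 CPM or more in the other 12. Slc16a3, which encodes the lactate exporter MCT4, had 0.66 (SE 0.24, adjusted p = 0.0873, edgeR) and at least 97.96% of the TPM of the 2 transporters. Csnk1d overlaps Slc16a3 on the genome, with 74095 counts against 55409. Slc16a1, which encodes MCT1, had 0.28 (SE 0.30) at 0.302 to 3.20 CPM.

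Hif1a was itself lowly expressed, and its difference did not pass the test. It was at 14.6, 12.8 and 13.4 at 0, 31.5, 19.5 and 14.8 at 20, and 17.0, 22.0 and 17.47 at 60 CPM in WT. KO gave values of 14.4, 19.1 and 28.2 at 0, 20.7, 21.9 and 15.9 at 20, and 21.1, 26.0 and 25.4 at 60 CPM. In WT every library at 20 and at 60 was above every library at 0, while in KO the levels overlapped. The KO over WT log2 fold change was 0.26 (SE 0.15, adjusted p = 0.26, edgeR) over all levels, 0.60 at 0, -0.17 at 20 and 0.36 at 60. Over all levels it ranged from 0.11 to 0.46 with a library or number left out. The difference in response at 20, KO minus WT, was -0.77 (SE 0.38, adjusted p = 1, edgeR). HIF1A is regulated mainly as a protein, which was not measured here.

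Egln1 and Egln3 are the prolyl hydroxylases that mark HIF1A for degradation, and Egln3 is also one of its targets. Egln1 had a log2 fold change of 0.49 (SE 0.25, adjusted p = 0.202, edgeR) over all levels. Egln3 was at 1.91, 0.470 and 3.19 at 0, 2.07, 1.89 and 3.54 at 20, and 3.58, 1.91 and 5.19 at 60 CPM in WT. KO libraries were at 1.88, 2.29 and 4.98 at 0, 3.66, 3.67 and 4.38 at 20, and 6.79, 4.83 and 8.93 at 60 CPM. Both genotypes had their highest mean at 60, 3.56 ± 1.64 CPM in WT and 6.85 ± 2.05 CPM in KO (mean ± SD, n = 3), and each overlapped its own libraries at 0. The KO over WT value was 0.77 (SE 0.31, adjusted p = 0.117, edgeR).

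The levels 20 and 60 were set against 0 to ask whether treatment moved the pathway, and 0 of 34 members were called in either genotype by edgeR, with 2, 0, 1 and 1 members at an unadjusted p under 0.05 in WT at 20 and 60 and in KO at 20 and 60, where 5.77%, 7.94%, 3.23% and 14.2% of all genes tested reached it. DESeq2 also called 0. In WT at 20, 27 members were higher than at 0, with a median log2 fold change of 0.21, and 0.600% of all genes tested were called. In WT at 60, 23 were higher, with a median of 0.09 and 0.221% of all genes called. In KO at 20, 30 were higher, with a median of 0.22 and 0.449% of all genes called. In KO at 60, 28 were higher, with a median of 0.22 and 2.54% of all genes called. The median over all genes tested lay between -0.028 and 0.0011 in these 4 comparisons, which share their libraries at 0 within each genotype. Without the mitochondrially rich libraries 27, 27, 26 and 29 members were higher, in the same order, again with 0 called. The 4 members with the smallest p at 60 in WT were Egln3 (0.94), Hif1a (0.47), Pdk3 (0.42) and Pfkm (-0.41). In KO they were Egln3 (1.16), Pfkfb4 (-0.44), Pdk3 (0.36) and Tpi1 (0.64), as log2 fold changes relative to the level 0. The adjusted p of Egln3 was 0.756 in WT and 0.344 in KO (edgeR). With genotype and number as a random effect, limma-voom called Egln3 at 60 in KO, at 1.26 with an adjusted p of 0.0168. Pfkfb4, a member of the PFKFB family known as a HIF1A target, was at 41.8, 35.4 and 28.8 at 0, 34.6, 34.9 and 35.5 at 20, and 31.2, 32.4 and 21.9 at 60 CPM in WT and at 42.4, 34.9 and 26.8 at 0, 38.6, 29.8 and 34.2 at 20, and 32.4, 20.6 and 23.6 at 60 CPM in KO, and in both genotypes the libraries at 60 overlapped those at 0.

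Whether KO responded differently was tested as the difference between the 2 responses. At 20 and at 60, 0 members and 0% of all genes tested were called by edgeR. No member had an unadjusted p under 0.05, which 0.396% and 1.10% of all genes tested reached, and DESeq2 called 0 members. KO minus WT was above 0 for 19 of 34 members at 20, with a median of 0.03, and for 24 at 60, with a median of 0.12. Without the mitochondrially rich libraries it was above 0 for 16 at 20 (median -0.04) and for 22 at 60 (median 0.13). Again 0 members were called. The 4 smallest p at 60 belonged to Pfkm (0.36), Pfkl (0.35), Pfkp (0.32) and Eno3 (0.22), each with an adjusted p of 1 (edgeR). Their direction did not hold under every setting, since Pfkp was at -0.44 when tested on log2(TPM + 1).

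Summed, the 34 members took 1.604 ± 0.62, 1.65 ± 0.31 and 1.64 ± 0.39% of the counts that were not mitochondrially encoded in WT at 0, 20 and 60. In KO they took 2.11 ± 0.42, 2.36 ± 0.29 and 2.21 ± 0.48% (mean ± SD, n = 3). At 20 every KO library was above every WT library, with 2.03% the lowest in KO and 1.995% the highest in WT, and at 0 and 60 the groups overlapped. Without the mitochondrially rich libraries the means were 1.78, 1.76 and 1.84% in WT and 2.14, 2.36 and 2.42% in KO. Aldoa alone was 27.4% to 42.4% of this sum.

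**Figure D5:**
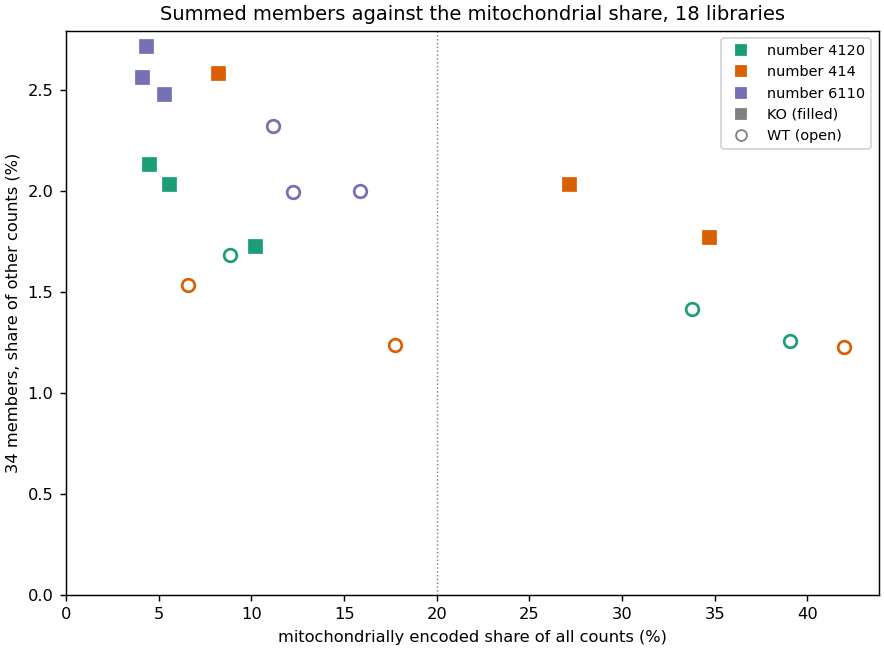
Each point is a library, with the mitochondrially encoded share of all counts on the x axis and the summed members as a share of the remaining counts on the y axis, both in percent. The KO libraries (filled) lie between 1.72 and 2.71% and the WT libraries (open) between 1.23 and 2.32%, and the 6110 libraries are the highest WT libraries at each level.

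The number and the mitochondrial share moved with the members. Within a group, number 6110 held the highest value in 122 of the 204 combinations of member and group, 59.8%, against 33.8% over all genes tested. Compared with the other numbers, 27 of 34 members were higher in 6110 (median log2 difference 0.46), while 4 of 34 were higher in 414 (median -0.34) and 12 in 4120 (median -0.13). Of the mitochondrially rich libraries, WT 414 and KO 414 at 60 were each the lowest of their group for 27 of 34 members, 79.4%, against 36.6% and 38.6% of all genes tested. WT 4120 at 20 was lowest for 20 members, KO 414 at 0 for 11 and WT 4120 at 0 for 5, against 35.1%, 30.0% and 31.3% of all genes tested. Of the libraries at or under 20%, WT 414 at 0 was lowest for 21 members and KO 4120 at 0 for 20, against 28.7% and 31.3% of all genes tested. Between libraries of the same number and level, KO exceeded WT in 9 of 9 comparisons for Hk1, Hk2, Gpi1, Aldoc, Tpi1, Pgam1, Eno1, Pkm, Pdk3, Slc16a3, Egln1 and Bnip3. For the same 12 genes it did so in 5 of the 5 comparisons that used no mitochondrially rich library. For Slc2a1 it did so in 3 of 9, those of number 414, and for Eno3 in 3 of 9. The 9 comparisons are 3 numbers each seen at 3 levels, so they are not independent. At 0 and at 20 the KO and WT libraries compared deviated together in numbers 4120 and 6110, with correlations of 0.302 to 0.452. In 414 they hardly did so, at 0.0137 and 0.0268. The share of all genes tested with KO higher in 9 of 9 was not computed. The median over the members was above 0 in each of the 9 comparisons, from 0.17 for 6110 at 20 to 0.79 for 414 at 0. The median over all genes tested ran from -0.02 to 0.02. What part the number and the mitochondrial share have in the genotype difference was not tested beyond these values.

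Other genes of carbohydrate metabolism and oxygen sensing, from lists chosen by function, gave few calls. Over all levels the glycogen list, 10 of 11 genes tested, had 2 higher and 1 lower in KO, where 10.9% of all genes tested were called. Pygb, the brain-type glycogen phosphorylase, was higher by 0.65 (SE 0.15, adjusted p = 0.0155, edgeR). It was at 14.8, 9.47 and 14.0 at 0, 18.9, 24.8 and 15.9 at 20, and 17.54, 16.2 and 14.4 at 60 CPM in WT and at 18.4, 18.5 and 31.2 at 0, 31.6, 32.6 and 21.5 at 20, and 28.5, 18.4 and 25.2 at 60 CPM in KO, overlapping at 20 and not at 0 or 60. Pygl, the liver type, was higher by 0.51 (SE 0.15, adjusted p = 0.0388, edgeR), and Pygm, the muscle type, had -0.76 (SE 0.22, adjusted p = 0.0372, edgeR), the one that was lower. Among 20 of 22 HIF1A targets outside glycolysis, 2 were higher in KO and 0 were lower, a share near the 10.9% of all genes called. They were P4ha2, a collagen prolyl hydroxylase, at 0.71 (adjusted p = 0.028, edgeR) and Hilpda, a lipid droplet protein, at 0.79 (adjusted p = 0.0337, edgeR). Of the other isoenzymes, 15 of 23 tested, Pfkfb1 at -0.62 and Eno4 at -3.38 were lower (adjusted p 0.0299 and 0.0232, edgeR), and Eno4 did not exceed 2.52 CPM in any library. The pentose phosphate list (8 of 8 tested), gluconeogenesis (6 of 8), pyruvate import and pyruvate dehydrogenase (10 of 10) and oxygen sensing (9 of 12) had 0 calls in each of the 10 comparisons, by edgeR. At an unadjusted p under 0.05 these 4 lists had 1 of 80, 1 of 60, 11 of 100 and 6 of 90 tests of a gene in a comparison, against a mean of 9.33% of all genes over the 10 comparisons. These calls over all levels share the limits of that comparison given above, and are given with all libraries only. None of the 7 lists had a call in the comparisons of KO with WT at a single level.

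Of the 20 HIF1A targets outside glycolysis, 3 rose in KO at 60 against 0 and 0 fell, in a comparison where 2.54% of all genes tested were called. Hmox1, the heme oxygenase, rose by 2.03 (SE 0.43, adjusted p = 0.018), Ndrg1, a stress-response gene, by 1.98 (SE 0.47, adjusted p = 0.0319), and Ero1l, an oxidase of the endoplasmic reticulum, by 1.27 (SE 0.31, adjusted p = 0.0356, all edgeR). Ndrg1 went from 292, 278 and 557 to 1454, 855 and 2129.6 CPM in KO, and from 325, 212 and 725 to 993, 610.0 and 1697 CPM in WT, where the libraries overlapped. Hmox1 went from 24.3, 63.3 and 34.7 to 148, 182 and 170.3 CPM in KO, and from 30.1, 81.9 and 57.8 to 134, 127 and 191 CPM in WT. Ero1l went from 586, 876 and 1126 to 2098, 1840.2 and 2323 CPM in KO, and from 629.6, 587 and 869.9 to 1021, 998 and 1753 CPM in WT. For both genes the libraries at 60 lay above those at 0 in KO and in WT without overlap. The glycolytic members gave 0 calls in the same comparison. The calls of Hmox1, Ndrg1 and Ero1l are given with all libraries only. Without the mitochondrially rich libraries, 103 of 17023 genes tested were called in that comparison. A difference between the genotypes in the response at 60 was called for 0 genes.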

How the data were processed

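RNA-seq of 18 libraries was analysed, 3 for each of 2 genotypes at 3 levels. The authors deposited 1 gene table with 3 kinds of value per library: raw read counts, FPKM (not used) and TPM, per the file headers. Reads were handled with bcl2fastq 2.20.0, FastQC 0.11.7, HISAT2 2.1.0 and StringTie 2.1.3b on mm10, per the submitters' processing notes; the strand setting is not given in the sources used here. No column of values was left unmapped (0). The mitochondrial share is that of the 37 genes RefSeq places on the mitochondrial genome.

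The deposited counts were fitted with edgeR 4.0.16 in R 4.3.3 (quasi-likelihood test, filterByExpr, TMM scaling, 1 mean per group, all 18 libraries), with Benjamini-Hochberg adjustment over all 17159 genes tested and calls at an adjusted p under 0.05. There were 10 comparisons. CPM uses TMM-scaled library sizes and serves to compare 1 gene between libraries, and deposited TPM serves to compare genes. The script was tested on simulated data. Means over the levels within each genotype and number were compared with an exact two-sided permutation test. With 3 against 3 its smallest p is 0.1. The libraries of a group differed beyond sampling noise, so none was treated as a copy. Nothing in the labels says whether libraries of a group came from separate cultures, so the p-values cover the spread among these libraries, which may be technical.

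Values in each library are given for members called in any comparison, for the 4 members with the smallest p over all levels, at 60 against 0 in each genotype and in the difference at 60, and always for Hif1a, Slc2a1, Ldha, Pdk1, Pfkm and Pfkl. One gene of the pathway lists is not reported here. Members and lists were chosen with earlier results of these data known. Alternatives used RLE scaling, no TMM, no filter, DESeq2 1.42.0, limma 3.58.1 on voom or log2(TPM + 1), the mitochondrial alternatives, sums per genotype and number, a replicate block and each library or number left out. One, the block without the mitochondrially rich libraries, was added after seeing the data. Libraries of the same number deviated together between levels within a genotype (correlations 0.210 to 0.811 over genes) and between genotypes at 60 (0.539 to 0.559), so numbers pair these samples, as judged from the data. Promoters are from RefSeq (GRCm38.p6).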

Additional observations from a re-analysis of the deposited data

Results flagged for a closer look

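For Pfkl at 60 and Ldhb at 20, within each number every KO library lay above its library at 0 and every WT library below, some by very little. Pfkl in WT 4120 was at 164.6 CPM at 60 and 165.02 CPM at 0, and Ldhb in 6110 rested on 5 to 7 counts a library. For Pfkl at 60 the mean response in KO minus that in WT was 0.325 on the log2(CPM + 0.1) scale. For Ldhb at 20 it was 0.905. The difference was not tested by this criterion. In the edgeR fit the differences were 0.35 (SE 0.50) for Pfkl and 1.23 (SE 1.61) for Ldhb, each with an adjusted p of 1. Ldhb did not exceed 2.15 CPM in any library.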

How the results depend on the processing

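The number of members called over all levels, 2 with all libraries, depended on the setting. It was 0 at an adjusted p under 0.01 and 6 under 0.1. It was 6 with DESeq2, 4 with mitochondrially encoded genes removed before scaling, 1 with limma on log2(TPM + 1), 1 with the mitochondrial share as a covariate, and 0 without the mitochondrially rich libraries, with counts summed per genotype and number, or with these as a random effect in limma-voom. Leaving out single libraries or numbers gave 0 to 14. For most of these settings the share of all genes called is not given here, and without it a count of members has no background. All calls were higher in KO. In KO at 60 against 0 limma-voom gave 1 call, against 0 with edgeR. The cause of these changes was not tested. The median of the members moved to 0.15 at 0, 0.14 at 20 and 0.25 at 60 with the mitochondrial covariate, to 0.54 at 60 with TPM, and to -0.0375 in KO at 60 against 0 with TPM. The median of all genes over all levels was 0.12 with TPM and 0.12 with library size alone, against 0.01, and with TPM 201 of 381 calls over all genes were higher in KO, against 736 of 1872.

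With 1 library or number left out, the median of the members ranged from 0.0741 to 0.83 at 0, 0.20 to 0.71 at 60, 0.31 to 0.64 over all levels, 0.0143 to 0.66 in WT at 20, -0.11 to 0.49 in WT at 60, -0.0376 to 0.43 in KO at 60, and -0.41 to 0.32 and -0.29 to 0.39 for the difference in response at 20 and 60. Slc2a1 over all levels turned to -0.00315 with RLE scaling and with DESeq2, -0.0269 with the mitochondrial covariate and -0.0300 with the block and without the mitochondrially rich libraries, and ranged from -0.20 to 0.17 with a library or number left out. Pdk1 turned to -0.0717 with the covariate and ranged from -0.0260 to 0.20. For the difference in response at 60, Pfkl ranged from -0.0650 to 0.77, Pfkp was -0.44 with TPM, and Eno3 was -0.0684 with the block and without the mitochondrially rich libraries. With a library or number left out, Hif1a and Pfkm over all levels ranged from 0.11 to 0.46 and 0.12 to 0.48, and Tpi1 in KO at 60 from 0.30 to 1.31. Of 726 values of named members under all alternatives, 669 kept their direction and side of the threshold, 24 lost the call, 16 gained one and 17 reversed.

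Libraries of the same number in KO and WT had correlations of deviations of 0.0137 to 0.437 at 0 and 0.0268 to 0.452 at 20. The lowest were those of 414, while 4120 and 6110 had 0.437 and 0.436 at 0 and 0.302 and 0.452 at 20. At these levels they thus did not deviate together for every number. With the number as a replicate block, 17 members were called over all levels, all higher in KO, where 23.1% of all genes tested were called. With the block and without the mitochondrially rich libraries 2 were called, Bnip3 and Slc16a3. The block changed no other call of a member. Hk3, Ldhb and Slc16a1 are limited by depth.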
